A study of Mus musculus with 38 samples.

Results

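The omental tumors of the 60577 model that had received chemotherapy were compared between 1 day (TP1) and 7 days (TP2) after the last dose. 60577 is a cell line of mouse high-grade serous ovarian cancer (HGSOC) from FVB mice, and it grows as tumors in the omentum, the fatty apron of the peritoneal cavity, after intraperitoneal injection. All treated tumors of the line at these time points were taken, which gave 3 tumors at TP1 and 4 at TP2, 7 of the 38 samples of the series. Each tumor came from 1 female FVB mouse that was 8 to 9 weeks old when the cells were injected and was given 3 weekly intraperitoneal doses, each of 20 mg/kg carboplatin with 10 mg/kg paclitaxel, starting 21 days after the injection. The TP1 tumors were thus collected on day 36 and the TP2 tumors on day 42. For comparison, 3 tumors of vehicle-treated 60577 mice at each time point (controls), 4 treated 60577 tumors collected 21 days after the last dose (TP3) and the treated tumors of a further model, HGS2 in C57BL/6J mice (3 at TP1 and 3 at TP2), were used. The HGS2 mice received the same drugs from day 49 after the injection. The tumors were sequenced as bulk RNA from mice with a complete immune system, so that each value mixes cancer, immune, stromal and fat cells, and fewer cells of a type and less RNA per cell cannot be told apart.

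Carboplatin forms platinum adducts that crosslink DNA, and paclitaxel binds microtubules and keeps them from disassembling. Dying tumor cells attract neutrophils and monocytes, and monocyte-derived macrophages clear debris, secrete proteases and cytokines, and prompt fibroblasts to lay down collagen-rich matrix, a sequence that resembles wound repair. The omentum also holds fat-associated lymphoid clusters in which B cells, T cells and dendritic cells gather.

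The expected counts, which are the read counts that RSEM estimates for each gene, summed to between 26209833 and 31411938 per TP1 tumor and between 19456375 and 26668717 per TP2 tumor, with the lowest total in TP2 replicate 3. Levels are given as CPM, the counts of a gene scaled to a common library size after TMM normalization. The library measures, where named as such, are instead CPM of the total count without this normalization. Of the genes, 16241 passed a filter of 1 CPM in 25% of 33 tumors. CPM are not divided by gene length, so they compare tumors and not genes.

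Some libraries stood apart before any comparison was made. In TP2 replicates 3 and 4 the mitochondrial transcripts summed to 3993 and 3598 CPM, against 14716 and 15359 CPM in TP2 replicates 1 and 2 and between 9234 and 10652 CPM at TP1. The 7SL RNA, a cytoplasmic non-coding RNA of the signal recognition particle, made up 194004 and 264976 CPM in the same tumors, 93808 and 131135 CPM in TP2 replicates 1 and 2, and 78685, 79904 and 153652 CPM at TP1. Protein coding genes took 70.8% and 66.5% of the counts in TP2 replicates 3 and 4, and between 77.4% and 85.2% at TP1. The TP2 tumors thus formed 2 pairs, one of them poor in mitochondrial and rich in 7SL RNA. For most of the gene lists described below, the counts of calls are also given without that pair. At TP1, replicate 2 held 2359 CPM of adipocyte genes against 560 and 424 CPM in the other tumors, and TP2 replicate 1 held 4320 CPM against 692 to 825 CPM. On the first principal component of the 60577 tumors (54.7% of the variance), TP1 replicate 2 lay at 22.9, close to TP2 replicate 2 at 23.6, whereas the other TP1 tumors lay at -13.1 and -14.5 and the other TP2 tumors between 34.8 and 58.

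**Figure D1:**
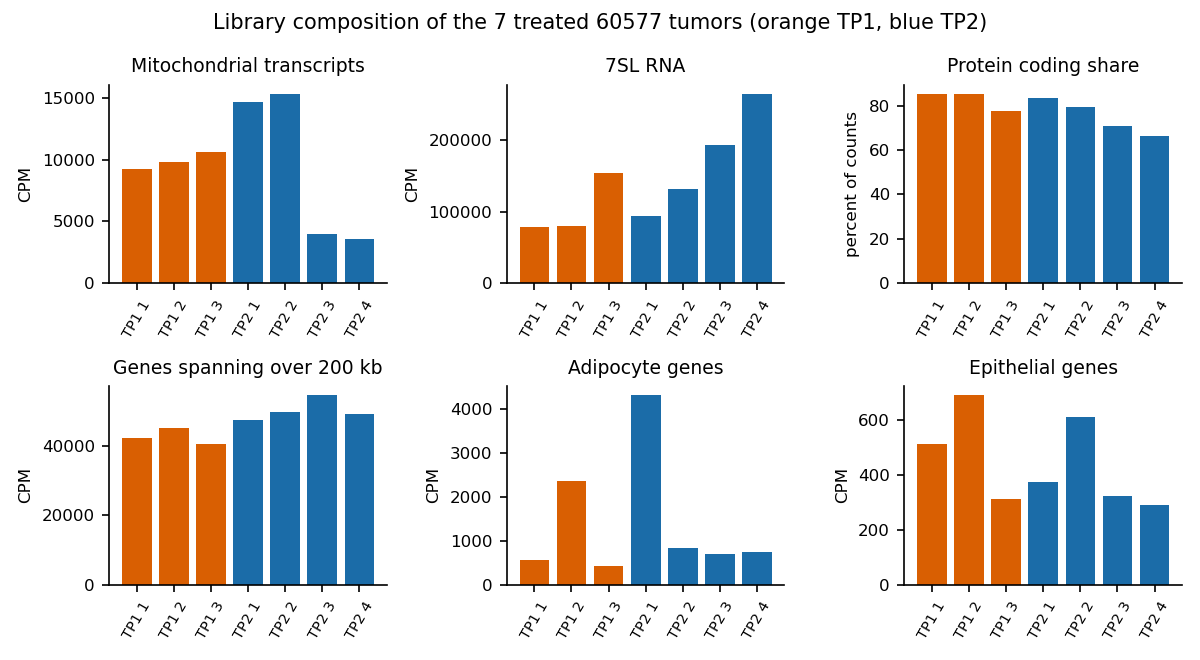
Composition of the 7 treated 60577 libraries, with 1 bar per tumor (orange TP1, blue TP2) for mitochondrial transcripts, 7SL RNA, genes spanning over 200 kb, adipocyte genes and epithelial genes (all in CPM of the total count, without TMM normalization), and for the share of counts in protein coding genes (percent). TP2 replicates 3 and 4 have the lowest mitochondrial bars (3993 and 3598 CPM) and the highest 7SL bars, and TP2 replicate 1 has the highest adipocyte bar (4320 CPM).

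Between TP1 and TP2, 977 genes changed by more than 2-fold in either direction at an adjusted p below 0.05 (quasi-likelihood test of edgeR, p adjusted by Benjamini-Hochberg), 581 higher and 396 lower at TP2. These genes are referred to as called, and they were 6.02% of the genes tested, 3.58% higher and 2.44% lower. An unadjusted p below 0.05 (edgeR) was found for 6065 of the 16241 genes tested, the background for the counts at this limit given below. The values of the TP1 and TP2 tumors did not overlap for 863 of the called genes (5.31% of all genes tested), against 4390 genes (27%) called or not. As whole transcriptomes, tumors of different time points were on average farther apart than tumors of the same time point (mean of 1 minus Pearson's correlation 0.057 against 0.0356), and no other split of the 7 tumors gave a larger difference (p = 0.0286 in a one-sided exact permutation test, the smallest value that 35 splits allow). The same test gave p = 0.0571 with Spearman's correlation and p = 0.133 without TP1 replicate 1 or 3. In single pairs, TP1 replicate 2 was nearer to TP2 replicates 1 and 2 (0.0234 and 0.025) than to TP1 replicates 1 and 3 (0.0257 and 0.0418). TP1 replicates 1 and 3 were nearest to each other (0.0202). All 17 tumors of the 60577 model entered the fit and shared one estimate of the spread, and with only the tumors of the compared groups in it 247 genes were called. The number of calls also depended on single tumors. It was 254 without TP1 replicate 1, 416 without TP1 replicate 3, 619 and 496 without TP2 replicate 3 or 4, 124 without both of these, and 2315 without both of the other TP2 tumors. The balance of the calls was not stable either, and genes called lower outnumbered those called higher with only the compared groups in the fit (154 against 93), in a joint fit with HGS2 (197 against 74), with the replicate number as a block (303 against 267), with the 7SL share as a covariate (305 against 255), without TP1 replicate 1 (159 against 95), TP1 replicate 3 (220 against 196) or TP2 replicate 4 (264 against 232), and without either pair of TP2 tumors (70 against 54 and 1355 against 960).

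**Figure D2:**
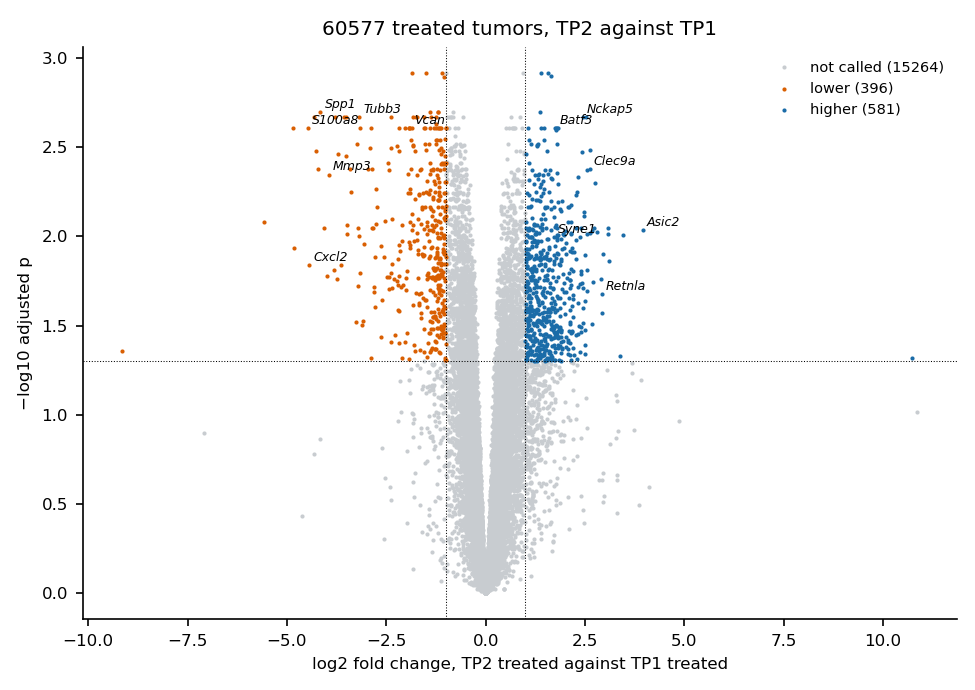
Volcano plot of the 16241 genes tested, with the log2 fold change of TP2 against TP1 treated tumors on the x axis and −log10 of the edgeR adjusted p on the y axis; dotted lines mark the limits for a call. Spp1 and S100a8 lie far to the left among the 396 genes called lower, and Asic2, at a log2 fold change of 3.96, and Clec9a are among the 581 genes called higher.

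The genes called lower and those called higher differed in where they are expressed. In the 60577 line grown in monoculture (2 libraries), 65.7% of the genes called lower at TP2 reached 1 CPM in both libraries, but 26.5% of the genes called higher did, against 75.6% of all genes tested. They also differed in the length of the gene from its first to its last exon. Among protein coding genes, 98 of 456 called higher (21.5%) spanned more than 200 kb, against 10 of 370 called lower (2.7%) and 5.22% of all tested. The median span was 39.5 kb for genes called higher, 14.5 kb for genes called lower and 24.4 kb over all. The share of long genes among those called higher was 44.9% (22 of 49) without the 2 TP2 tumors low in mitochondrial RNA and 16.2% (108 of 665) without the other 2, so it exceeded the share over all genes in either case. With gene length and GC content as an offset it was 17.5%.

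Genes of neutrophils and immature myeloid cells showed the steepest fall of the 41 gene lists examined. The 11 of 16 members that passed the filter were called lower, with a median log2 fold change of -3.52 against 0.03 over all genes tested. S100a8, a subunit of the calprotectin complex that neutrophils carry in bulk, measured 10.5, 3.2 and 16.6 CPM at TP1 and 1.11, 0.231, 0.156 and 0.256 CPM at TP2. Its partner S100a9 measured 10.7, 4.9 and 21.6 CPM at TP1 and 0.883, 0.347, 0.675 and 0.554 CPM at TP2. Every TP2 tumor lay below every TP1 tumor for both genes, and TP1 replicate 2 was the lowest of its group. The log2 fold change was -4.47 ± 0.67 (SE) for S100a8 (edgeR adjusted p = 0.00247) and -4.33 ± 0.62 (SE) for S100a9 (edgeR adjusted p = 0.00215). Trem1, a receptor that amplifies inflammatory signals, fell from 21, 10.4 and 28.4 CPM to 1.11, 1.5, 1.3 and 1.79 CPM (-3.80, edgeR adjusted p = 0.00215). Cxcr2, the receptor through which neutrophils follow CXC chemokines, fell from 8.77, 3.62 and 22.5 CPM to 1.31, 0.963, 0.468 and 0.767 CPM (-3.70, edgeR adjusted p = 0.00344). These were low levels, and 5 members of the list (Retnlg, Ly6g, Ltf, Camp and Cd177), among them defining genes of mature neutrophils, did not pass the filter. Lcn2, an iron-binding antibacterial protein, and the lectin receptor Clec4d followed the same course, with a log2 fold change of -3.52 each. The list summed to 541, 159 and 932 CPM at TP1 and 96.1, 85.9, 57.2 and 80.5 CPM at TP2. The member with the highest mean CPM was Mmp9, a gelatinase that macrophages and stromal cells also make, which was called but overlapped between the groups (336, 43.3 and 575 CPM at TP1 and 49.5, 40.4, 15.5 and 31.3 CPM at TP2, -3.22, edgeR adjusted p = 0.00895). The number of members called stayed between 9 and 11 with any single tumor left out and was 4 without both TP2 tumors low in mitochondrial RNA, with a median of -3.04.

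The chemokines that recruit these cells fell with them. Of 17 inflammatory cytokine and chemokine genes, 12 were called lower and none higher (median log2 fold change -2.19). Cxcl2, a ligand of CXCR2, measured 26.2, 5.01 and 52.3 CPM at TP1 and 0.998, 0.809, 1.56 and 1.79 CPM at TP2. The related Cxcl3 measured 9.91, 2.26 and 9.08 CPM at TP1 and 1.42, 0.27, 0.779 and 0.852 CPM at TP2, and Cxcl5 measured 13.5, 5.2 and 28.4 CPM at TP1 and 2.19, 2.35, 1.92 and 1.06 CPM at TP2. For each of these chemokines the TP1 tumors lay above all TP2 tumors, with TP1 replicate 2 nearest to them. Their log2 fold changes were -4.44 ± 1.07 (SE) (edgeR adjusted p = 0.0144), -3.08 ± 0.90 (SE) (edgeR adjusted p = 0.0298) and -3.05 ± 0.69 (SE) (edgeR adjusted p = 0.011). Il1b, the interleukin that drives much of the acute response, fell from 37.7, 15.4 and 75.8 CPM to 6.72, 5.16, 7.48 and 4.09 CPM, a log2 fold change of -2.87 ± 0.45 (SE) (edgeR adjusted p = 0.00247). Ccl3, a chemokine for monocytes, changed by -3.11 (edgeR adjusted p = 0.0315). Saa3, an acute phase protein, fell from 173, 237 and 249 CPM to 31.6, 28.5, 5.51 and 12.1 CPM (-3.49, edgeR adjusted p = 0.00974), and its 2 lowest values were those of TP2 replicates 3 and 4. The list held 4 to 13 calls with 1 tumor left out, 4 without TP1 replicate 3 and 6 without TP1 replicate 1, and 2 without both TP2 tumors low in mitochondrial RNA, with a median of -2.42. Outside the list, Acod1, which makes the antibacterial metabolite itaconate, fell from 30.2, 8.66 and 112 CPM to 5.57, 2.46, 6.8 and 7.71 CPM (-3.16, edgeR adjusted p = 0.016). Without TP1 replicate 3 its change was -1.79 and not called (edgeR adjusted p = 0.114).

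Cxcl2 and Cxcl3 lie in the same CXC chemokine cluster, and the windows of 300 bases around their start sites (RefSeq, GRCm38.p6, 250 bases before to 50 after, plus strand) are shown because both hold a match to a motif of NF-kB, GGGA and TTCC separated by any 2 bases, which was searched on both strands. Capitals mark the match, in which the overlapping matches on the 2 strands run together. Such a match was found in the promoters of 1.63% of 27025 genes, and in those of Cxcl1, Csf1 and Il6 among the other members of the list that had a promoter in the table (11 of 17, too few for a share over the list). The Cxcl2 window is chr5:90903649-90903948 and the Cxcl3 window chr5:90785851-90786150.
Cxcl2: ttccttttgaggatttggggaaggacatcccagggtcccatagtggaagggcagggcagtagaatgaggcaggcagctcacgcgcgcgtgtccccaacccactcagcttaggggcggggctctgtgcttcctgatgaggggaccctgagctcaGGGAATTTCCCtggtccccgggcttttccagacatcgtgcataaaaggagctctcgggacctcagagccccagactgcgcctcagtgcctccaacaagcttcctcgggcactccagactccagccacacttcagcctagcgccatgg
Cxcl3: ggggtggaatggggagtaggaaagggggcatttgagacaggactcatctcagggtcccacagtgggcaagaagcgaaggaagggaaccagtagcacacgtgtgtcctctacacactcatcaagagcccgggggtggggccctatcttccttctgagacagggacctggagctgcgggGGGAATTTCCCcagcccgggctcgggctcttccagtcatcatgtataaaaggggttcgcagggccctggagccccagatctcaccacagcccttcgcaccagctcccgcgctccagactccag
The Cxcl2 match starts 97 bases and the Cxcl3 match 73 bases before the start site, a description of the sequence and not of binding.

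Few general macrophage genes were called, but most of those of the lipid-associated state were. Of 14 general monocyte and macrophage genes, 2 were called lower and none higher (median -0.18). Csf1r, the receptor for the growth factor on which macrophages depend, measured 284, 272 and 273 CPM at TP1 and 423, 378, 216 and 279.6 CPM at TP2, and the groups overlapped (log2 fold change 0.23 ± 0.26 (SE), edgeR adjusted p = 0.544). The 2 genes called were Itgam, an integrin chain of recruited myeloid cells, which fell from 363, 249 and 306 CPM to 115, 78.1, 43.8 and 77.1 CPM (-1.96, edgeR adjusted p = 0.00573), and Cd68, a lysosomal glycoprotein, with a change of -1.88 (edgeR adjusted p = 0.00421). The general list held 1 call without both TP2 tumors low in mitochondrial RNA (median 0.23). By contrast, 10 of 12 lipid-associated macrophage genes were called lower (median -2.14). Spp1, which encodes the secreted adhesion protein osteopontin, measured 835, 119 and 756 CPM at TP1 and 36.1, 45.9, 30.1 and 15.5 CPM at TP2, a log2 fold change of -4.16 ± 0.55 (SE) (edgeR adjusted p = 0.002). Its TP2 values were below all control values as well (at least 92.8 CPM). Ctsk, the collagen-cleaving cathepsin, fell from 184, 38.4 and 380.3 CPM to 26.9, 30.7, 15.4 and 11.5 CPM (-3.24, edgeR adjusted p = 0.00305), with TP1 replicate 2 just above the TP2 tumors. Lgals3, a lectin abundant in activated macrophages, changed by -2.10 (edgeR adjusted p = 0.0106). Trem2, the lipid receptor that names this state, fell from 122, 70.1 and 115 CPM to 52, 53.2, 55.8 and 53.5 CPM without overlap, and its log2 fold change of -0.93 ± 0.16 (SE) stayed within the limit of 1 (edgeR adjusted p = 0.00418). The list held 3 calls without TP1 replicate 1, 1 call without both TP2 tumors low in mitochondrial RNA and 11 without the other 2, and its median stayed between -2.90 and -1.68 in these fits.

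Lysosomal enzymes had some of the highest counts among the genes called. Ctsb measured 2393, 1523 and 1918 CPM at TP1 and 1178, 938, 389 and 547 CPM at TP2, a log2 fold change of -1.35 ± 0.29 (SE) (edgeR adjusted p = 0.00864). Ctsd measured 2262, 1165 and 1695 CPM at TP1 and 882, 627, 257 and 369 CPM at TP2, a change of -1.68 ± 0.33 (SE) (edgeR adjusted p = 0.00586). Both genes were lowest in TP2 replicates 3 and 4, but TP2 replicates 1 and 2 also lay below all TP1 tumors. Ftl1, the light chain of the iron store ferritin, changed by -1.25 (edgeR adjusted p = 0.017) with overlapping groups. Of 9 genes of resident omental macrophages, 1 was called, the hemoglobin scavenger receptor Cd163, which rose from 1.61, 2.56 and 0.791 CPM to 3.8, 5.47, 4.88 and 5.37 CPM (1.55, edgeR adjusted p = 0.0404). It was not called with any one of TP1 replicates 1 and 3 and TP2 replicates 2, 3 and 4 left out (1.23 to 1.55), nor without both TP2 tumors low in mitochondrial RNA (1.48 on the log2 scale, edgeR adjusted p = 0.171). Other members were called in single fits, Lyve1 higher without TP2 replicate 3 (1.99, edgeR adjusted p = 0.0471) and Folr2 lower without TP2 replicate 1 (-1.20 on the log2 scale, edgeR adjusted p = 0.0401). Timd4, the phosphatidylserine receptor of these cells, measured 2.14, 6.7 and 1.04 CPM at TP1 and 11.1, 6.39, 2.29 and 8.27 CPM at TP2, overlapping between the groups (1.09, edgeR adjusted p = 0.304).

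**Figure D3:**
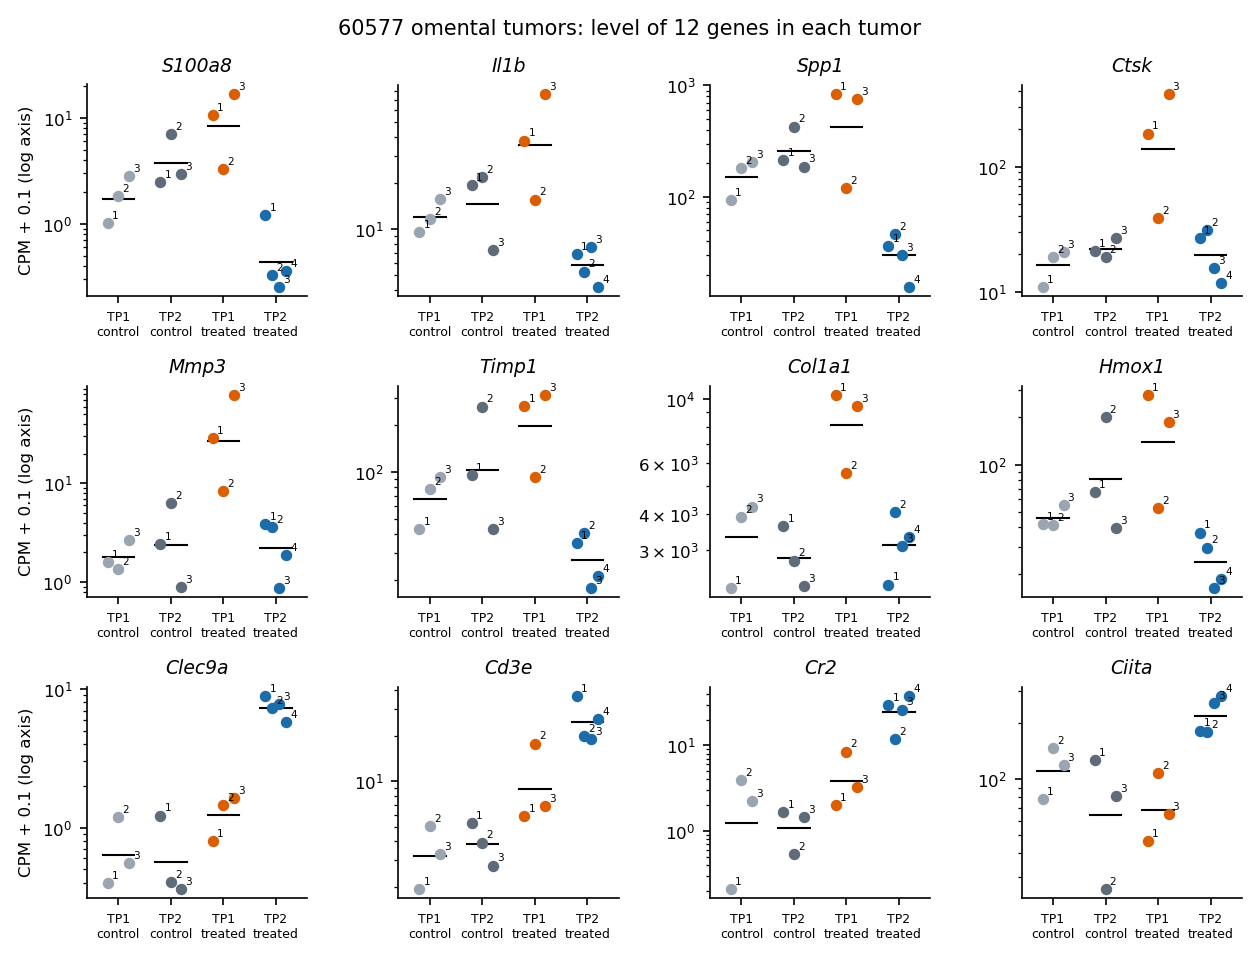
Level of 12 genes in each 60577 tumor at TP1 and TP2 (CPM + 0.1, log axis; 1 point per tumor labeled with its replicate number, line at the geometric mean, n = 3 in each group except TP2 treated with n = 4). For the first 8 genes every TP2 treated tumor lies below every TP1 treated tumor, and for the last 4 every TP2 treated tumor lies above every TP1 treated tumor.

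The extracellular matrix formed the next large group. Collagens, their processing enzymes and the glycoproteins were among the genes called lower at TP2. Of 7 fibrillar collagen genes, 4 were called lower and none higher (median -1.19). Col1a1 measured 10307, 5558 and 9439.6 CPM at TP1 and 2279, 4064, 3099 and 3323 CPM at TP2. Col3a1 measured 12302, 8076 and 9796 CPM at TP1 and 3975, 4750.3, 2992 and 4237 CPM at TP2, and Col1a2 measured 5241, 3337 and 4513 CPM at TP1 and 1565, 2330.4, 1622 and 2150.0 CPM at TP2. All TP2 tumors lay below all TP1 tumors for the 3 genes, with TP1 replicate 2 the lowest of its group. The log2 fold changes were -1.40 ± 0.27 (SE) (edgeR adjusted p = 0.00552), -1.33 ± 0.24 (SE) (edgeR adjusted p = 0.00423) and -1.19 ± 0.25 (SE) (edgeR adjusted p = 0.00821). For Col1a1 the TP2 values lay within the range of the controls at the same time point (3637, 2761 and 2248 CPM), except for replicate 2, which lay above it, whereas every TP1 treated tumor exceeded every control. The number of calls ranged from 2 to 5 with 1 tumor left out and was 1 without both TP2 tumors low in mitochondrial RNA, with a median of -1.21.

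Of 16 matrix glycoprotein and proteoglycan genes, 5 were called lower and none higher (median -0.88). Vcan, the large proteoglycan versican that swells provisional matrix, measured 590.5, 279 and 664 CPM at TP1 and 130.0, 168, 135 and 109 CPM at TP2, a log2 fold change of -1.92 ± 0.29 (SE) (edgeR adjusted p = 0.00247). Fn1, the scaffold protein fibronectin and the called gene with the highest mean CPM, measured 14516, 7817 and 10233 CPM at TP1 and 4631, 5015, 2831 and 3489 CPM at TP2, a change of -1.44 ± 0.28 (SE) (edgeR adjusted p = 0.00573). Sparc, which binds collagen, fell from 2363, 1575 and 1679 CPM to 1124, 1035, 521 and 579.8 CPM (-1.20, edgeR adjusted p = 0.0102). None of the 3 genes overlapped between the time points, and Fn1 and Sparc were lowest in TP2 replicates 3 and 4. Has2, which makes hyaluronan, changed by -2.43 (edgeR adjusted p = 0.0197), and Cthrc1, a marker of collagen-secreting fibroblasts, by -1.36 (edgeR adjusted p = 0.007). The list held 3 calls without TP1 replicate 1, 8 without TP2 replicate 1, 1 without both TP2 tumors low in mitochondrial RNA (median -0.73) and 10 without the other 2. Of 13 crosslinking and hydroxylation genes, 3 were called lower: Lox, which oxidizes lysines so that collagen fibers crosslink, fell from 279.6, 153 and 279 CPM to 104, 98.5, 54.4 and 50.1 CPM (-1.62, edgeR adjusted p = 0.00851), Loxl2 by a log2 fold change of -1.36 (edgeR adjusted p = 0.00918), and the prolyl hydroxylase subunit P4ha3 by -1.001 (edgeR adjusted p = 0.013). Without TP1 replicate 1 or without both TP2 tumors low in mitochondrial RNA, 0 genes of this list were called, and the median was -0.76 and -0.58. In the basement membrane list, Col4a1 (-1.28, edgeR adjusted p = 0.0154) and Col4a2 (-1.14, edgeR adjusted p = 0.0134) were called among 12 genes, and in the integrin list the fibronectin receptor chain Itga5 among 11 (-1.33, edgeR adjusted p = 0.0205). Without TP1 replicate 1 and without both TP2 tumors low in mitochondrial RNA, 0 genes of either list were called. The basement membrane list held 1 call without TP1 replicate 3, 3 without TP1 replicate 2 or TP2 replicate 2, 5 without TP2 replicate 1 and 6 without both TP2 tumors richer in mitochondrial RNA, and the integrin list held 0 without TP1 replicate 3 or TP2 replicate 4.

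Proteases that cut this matrix fell as well. Of 16 protease and inhibitor genes, 10 were called lower and none higher (median -1.26). Mmp3, stromelysin-1, measured 28.8, 8.32 and 78.1 CPM at TP1 and 3.76, 3.5, 0.779 and 1.79 CPM at TP2, and the collagenase Mmp13 measured 19.4, 7.31 and 31.9 CPM at TP1 and 1.38, 3.7, 1.3 and 0.895 CPM at TP2. Mmp10, stromelysin-2, was low throughout at 3.28, 1.05 and 2.46 CPM at TP1 and 0.499, 0.847, 0.156 and 0.17 CPM at TP2. Each of the 3 genes was highest in TP1 replicates 1 and 3 and did not overlap between the time points, with log2 fold changes of -3.95 ± 0.72 (SE) (edgeR adjusted p = 0.0045), -3.41 ± 0.60 (SE) (edgeR adjusted p = 0.00418) and -2.39 ± 0.75 (SE) (edgeR adjusted p = 0.0389). Timp1, an inhibitor of these enzymes, fell from 265, 91.9 and 312 CPM to 34.4, 39.97, 17.8 and 21.3 CPM (-2.97 ± 0.52 (SE), edgeR adjusted p = 0.00418), so that proteases and inhibitor moved in the same direction. Mmp14, the membrane-bound protease of fibroblasts, fell from 524, 395 and 411 CPM to 262, 323, 192 and 196 CPM without overlap, a change of -0.87 that stayed within the limit of 1. The list held 4 calls without TP1 replicate 1 and 0 without both TP2 tumors low in mitochondrial RNA, with a median of -0.96 in the latter.

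Mmp3, Mmp10 and Mmp13 lie in the protease cluster of chromosome 9, and their start site windows of 300 bases (RefSeq, GRCm38.p6, plus strand) are shown because each holds 1 match to the AP-1 motif TGANTCA, in capitals, the element bound by Fos and Jun proteins. The motif is its own reverse complement, and both strands were searched. It was found in 8.97% of the promoters of 27025 genes and, among the other members of the list with a promoter in the table (10 of 16, too few for a share over the list), in that of Plaur. The windows are chr9:7445572-7445871 for Mmp3, chr9:7502092-7502391 for Mmp10 and chr9:7272264-7272563 for Mmp13.
Mmp3: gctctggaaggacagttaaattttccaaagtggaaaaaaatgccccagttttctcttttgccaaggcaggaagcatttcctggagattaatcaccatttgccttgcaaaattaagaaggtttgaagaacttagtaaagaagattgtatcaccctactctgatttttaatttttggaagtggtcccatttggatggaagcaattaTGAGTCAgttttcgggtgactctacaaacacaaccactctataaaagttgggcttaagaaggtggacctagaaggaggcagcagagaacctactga
Mmp10: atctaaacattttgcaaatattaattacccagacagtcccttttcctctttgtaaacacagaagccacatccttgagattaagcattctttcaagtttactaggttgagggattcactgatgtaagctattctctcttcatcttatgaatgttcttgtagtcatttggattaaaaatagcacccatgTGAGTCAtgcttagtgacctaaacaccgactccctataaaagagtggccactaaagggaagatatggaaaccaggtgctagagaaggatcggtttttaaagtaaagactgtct
Mmp13: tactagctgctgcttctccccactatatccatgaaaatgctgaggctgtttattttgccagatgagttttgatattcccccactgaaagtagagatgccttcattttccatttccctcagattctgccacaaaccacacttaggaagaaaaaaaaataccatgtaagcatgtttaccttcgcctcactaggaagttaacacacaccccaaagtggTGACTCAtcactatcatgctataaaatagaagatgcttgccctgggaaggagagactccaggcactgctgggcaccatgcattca
The match starts 46, 63 and 35 bases before the start site in this order. Fos, which encodes a subunit of AP-1, fell from 34.9, 33.2 and 57.9 CPM to 9.33, 11.9, 13.6 and 10.1 CPM (-1.91 ± 0.36 (SE), edgeR adjusted p = 0.00543), and binding was not measured.

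Fos belonged to 10 immediate early genes, of which Egr1, a growth factor-induced transcription factor, was the other gene called lower (-1.15, edgeR adjusted p = 0.00751). Of these 10 genes, 0 were called without both TP2 tumors low in mitochondrial RNA (median -0.70) and 1 to 3 with 1 tumor left out. Genes of the response to oxidative and metal stress fell in larger number, 7 of 12 called lower and none higher (median -1.18). Hmox1, the heme-degrading enzyme, measured 277, 52.7 and 187 CPM at TP1 and 36.7, 29.5, 16.3 and 18.6 CPM at TP2, a log2 fold change of -2.76 ± 0.53 (SE) (edgeR adjusted p = 0.00543). Slc7a11, the cystine importer that feeds glutathione synthesis, measured 90.4, 17.5 and 115 CPM at TP1 and 15.2, 7.08, 12.3 and 9.76 CPM at TP2, a change of -2.75 ± 0.55 (SE) (edgeR adjusted p = 0.00689). Both genes were high in TP1 replicates 1 and 3, and TP1 replicate 2 was close to the TP2 tumors. Srxn1 (-1.56, edgeR adjusted p = 0.00247) and the metallothionein Mt2 (-1.48, edgeR adjusted p = 0.025) followed. The count was 4 without TP1 replicate 1 or without TP2 replicate 3, 5 to 8 with any other tumor left out, and 2 without both TP2 tumors low in mitochondrial RNA, with a median of -0.89.

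Of 17 hypoxia and glycolysis genes, 8 were called lower and none higher (median -1.14). Slc2a1, the main glucose importer of these tissues, measured 133, 56.4 and 115 CPM at TP1 and 30.3, 33.8, 28.1 and 34.9 CPM at TP2, a log2 fold change of -1.68 ± 0.45 (SE) (edgeR adjusted p = 0.021). Pgk1 fell from 311, 169.6 and 229 CPM to 97.9, 103, 51.6 and 72.4 CPM (-1.54, edgeR adjusted p = 0.0115). Pkm, the pyruvate kinase, changed by -1.33 (edgeR adjusted p = 0.00722) and Ldha, the lactate dehydrogenase chain, by -1.29 (edgeR adjusted p = 0.0154). All 4 genes lay below the TP1 tumors in every TP2 tumor. This list was sensitive to single tumors, with 1 call without TP1 replicate 1, 3 without TP2 replicate 4 and 0 without both TP2 tumors low in mitochondrial RNA (median -0.93).

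Of 16 genes of the p53 response, 1 was called lower, the kinase gene Plk2 (-1.12, edgeR adjusted p = 0.00347), and the median was -0.39. Without TP1 replicate 1, Plk2 changed by -0.95 and was not called. Cdkn1a, the cell cycle inhibitor p21 that p53 induces after DNA damage, measured 183, 175 and 179 CPM at TP1 and 103, 96.5, 48.8 and 107 CPM at TP2, against 16.6, 14.5 and 16.7 CPM in the TP1 controls. Its TP2 tumors all lay below the TP1 tumors and above the TP1 controls, and the log2 fold change of -1.01 ± 0.55 (SE) was not called (edgeR adjusted p = 0.191). Cdkn1a (-1.01, edgeR adjusted p = 0.0101) and Gdf15 (-1.07, edgeR adjusted p = 0.0258) were called lower without TP2 control replicate 2, which is not one of the compared tumors. The p53 list held 1 call without both TP2 tumors low in mitochondrial RNA (median -0.33). In the stress response list of ATF4 and the unfolded protein response, Atf3 (-1.34, edgeR adjusted p = 0.0329) and Trib3 (-1.003, edgeR adjusted p = 0.0495) were called among 12 genes, and Ddit3 measured 16.2, 14 and 17.2 CPM at TP1 and 13.7, 13, 15.1 and 18.7 CPM at TP2 (-0.06, edgeR adjusted p = 0.808). No gene of this list was called by edgeR with any one of TP1 replicates 1 and 3 and TP2 replicates 3 and 4 left out, nor without both of the latter, and 3 were without TP2 replicate 1.

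Tubulin genes fell together. Of 10 tubulin and stathmin genes, 7 were called lower and none higher (median -1.15), and their summed level was 2021, 2261 and 2226 CPM at TP1 and 1370, 1178, 593 and 713 CPM at TP2. The tubulins encode the alpha and beta chains of the microtubules that paclitaxel binds. Their transcripts are subject to an autoregulation in which ribosomes that have translated the first 4 codons are recognized and the mRNA is degraded when unassembled tubulin is in excess. The first 30 coding bases of some members are therefore shown, with the first 4 codons in capitals (GENCODE M21 transcripts, GRCm38). The sequences of Tubb2b and Tubb6 are not shown.
Tubb2a: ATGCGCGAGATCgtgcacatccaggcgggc
Tubb3: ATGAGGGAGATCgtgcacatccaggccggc
Tubb4b: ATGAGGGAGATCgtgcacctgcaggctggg
Tubb5: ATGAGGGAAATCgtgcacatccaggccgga
Tuba1a: ATGCGTGAGTGCatctccatccatgttggc
Tuba1b: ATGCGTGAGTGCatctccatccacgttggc
Tuba1c: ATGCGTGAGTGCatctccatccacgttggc
The bases of the first 4 codons were the same in the 3 alpha tubulin genes, and among the beta tubulin genes Tubb3 and Tubb4b shared theirs. Those of the beta tubulin genes shown differed only between codons for the same amino acid. The genes lie at chr13:34074274-34078007 (minus strand) for Tubb2a, chr8:123411424-123422015 (plus strand) for Tubb3, chr2:25222160-25224702 (minus strand) for Tubb4b, chr17:35833921-35838306 (minus strand) for Tubb5, chr15:98949837-98953703 (minus strand) for Tuba1a, chr15:98931425-98934565 (minus strand) for Tuba1b and chr15:99029891-99038110 (plus strand) for Tuba1c.

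Tubb3, a beta tubulin of neurons and many carcinomas, measured 7.6, 6.7 and 7.66 CPM at TP1 and 0.806, 1.19, 0.364 and 0.809 CPM at TP2, a log2 fold change of -3.18 ± 0.45 (SE) (edgeR adjusted p = 0.00215). Tuba1c measured 190.3, 195 and 217 CPM at TP1 and 118, 91.3, 42.4 and 52.3 CPM at TP2, a change of -1.40 ± 0.25 (SE) (edgeR adjusted p = 0.00448). Tubb6 measured 139, 91.4 and 160.4 CPM at TP1 and 41.6, 35.1, 16.1 and 22.7 CPM at TP2, a change of -2.17 ± 0.34 (SE) (edgeR adjusted p = 0.00247). No tubulin named here overlapped between the time points. Tubb5, the member with the highest counts, changed by -1.16 (edgeR adjusted p = 0.00247), Tuba1a by -1.19 (edgeR adjusted p = 0.0223), and Tubb2a by -0.96, within the limit of 1 (edgeR adjusted p = 0.00677). Relative to controls the members differed at TP1. Tubb2a and Tubb6 were higher in all TP1 treated tumors than in all TP1 controls (63.2, 72.4 and 83 CPM and 52.6, 52.1 and 60.5 CPM), whereas Tuba1c (193, 195 and 201 CPM in controls) was close to them. At TP2, Tuba1c lay below all controls of that time point (207, 268 and 193 CPM). The lowest values of the tubulins named were those of TP2 replicates 3 and 4, the tumors low in mitochondrial RNA, except that Tubb3 in replicate 4 was close to replicate 1. The list held 4 calls without TP2 replicate 3 and 5 to 8 with any other tumor left out. Without both tumors low in mitochondrial RNA 2 members were called (median -0.76), whereas without the other 2 TP2 tumors all 10 were (median -1.71). The near-identical sequences of the family mean that RSEM had to divide shared reads among its members, so single genes are less certain than the sum.

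**Figure D4:**
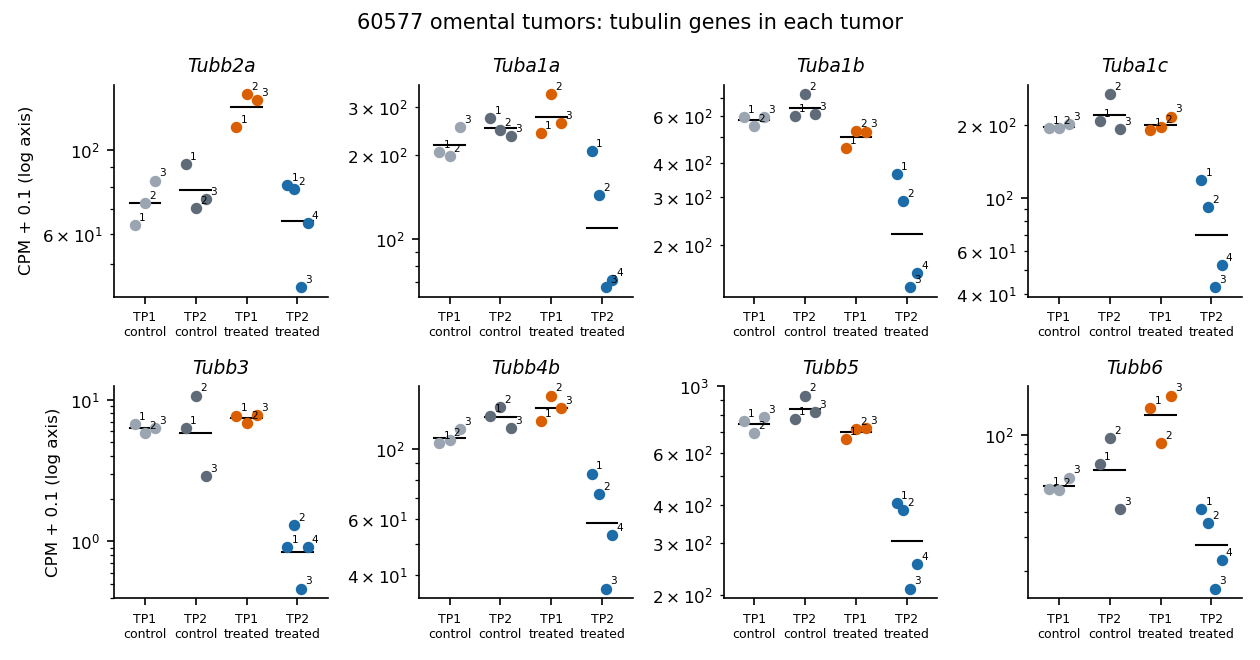
Level of 8 tubulin genes in each 60577 tumor (CPM + 0.1, log axis; 1 point per tumor labeled with its replicate number, line at the geometric mean, n = 3 in each group except TP2 treated with n = 4). In every panel the TP2 treated tumors lie below the TP1 treated tumors, and replicates 3 and 4 are below replicates 1 and 2 in all panels except those of Tubb3.

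Genes of B cells, dendritic cells and T cells were among those called higher. Of 12 B cell genes, 10 were called higher and none lower (median 2.14). Cr2, complement receptor 2 of B cells and follicular dendritic cells, measured 1.91, 8.36 and 3.17 CPM at TP1 and 29.5, 11.8, 26.1 and 37.5 CPM at TP2, and the lineage factor Pax5 measured 3.25, 15.6 and 4.96 CPM at TP1 and 39, 16.1, 58.7 and 58.1 CPM at TP2. TP2 replicate 2 was the lowest of its group for both genes and lay just above TP1 replicate 2, which was the highest of the TP1 tumors, so the groups did not overlap. The log2 fold changes were 2.55 ± 0.67 (SE) (edgeR adjusted p = 0.0202) and 2.44 ± 0.64 (SE) (edgeR adjusted p = 0.0195). The B cell kinase Blk changed by 2.55 (edgeR adjusted p = 0.0154). Their median stayed between 1.81 and 3.26 with 1 tumor left out, but 1 gene was called without TP1 replicate 1, 1 without TP1 replicate 3 and 0 without both TP2 tumors low in mitochondrial RNA (median 1.82).

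Antibody genes varied between the tumors of each group. Of 11 immunoglobulin constant genes, 3 were called higher, among them Ighd of the naive B cell receptor, which measured 2.85, 11.2 and 3.12 CPM at TP1 and 35.6, 11.1, 50.7 and 32.2 CPM at TP2 (2.497, edgeR adjusted p = 0.0229). Of 69 variable segments 0 were called by edgeR, and 9 had an unadjusted p below 0.05, against 6065 of all 16241 genes tested. The variable segments summed to 15.4, 160 and 4.29 CPM at TP1 and 209, 25.2, 28.6 and 44.4 CPM at TP2, so that TP1 replicate 2 and TP2 replicate 1 exceeded all others. The constant genes had the same 2 peaks, 941 CPM in TP1 replicate 2 and 1350 CPM in TP2 replicate 1, which were also the tumors with the most adipocyte RNA, and the part of fat in these values was not tested. Jchain, the joining chain of secreted antibodies, measured 8.84, 80.9 and 3.21 CPM at TP1 and 144, 16.9, 14.8 and 28.8 CPM at TP2 (0.72, edgeR adjusted p = 0.668). In the plasma cell list of 9 genes, Irf4, a transcription factor of plasma cells and activated lymphocytes, was called higher (1.504, edgeR adjusted p = 0.0385) and Sdc1, a proteoglycan that epithelial cells also carry, lower (349, 159 and 336 CPM to 90.5, 102, 71.6 and 67 CPM, -1.76, edgeR adjusted p = 0.00215). Irf4 was not called with any one of TP1 replicates 1 and 3 and TP2 replicates 3 and 4 left out (1.21 to 1.54), nor without both of the latter, whereas Sdc1 was called in each of these fits.

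Of 11 dendritic cell genes, 5 were called higher and none lower (median 1.53). Clec9a, the receptor for dead cell actin on cross-presenting dendritic cells, measured 0.703, 1.36 and 1.54 CPM at TP1 and 8.79, 7.2, 7.74 and 5.67 CPM at TP2, a log2 fold change of 2.62 ± 0.46 (SE) (edgeR adjusted p = 0.00421). Flt3, the growth factor receptor of dendritic cells, measured 1.54, 4.14 and 4.33 CPM at TP1 and 13.2, 10.2, 11 and 10.9 CPM at TP2, a change of 1.76 ± 0.42 (SE) (edgeR adjusted p = 0.0132). Batf3, the factor that cross-presenting cells require, rose from 1.57, 3.09 and 2.37 CPM to 8.14, 6.93, 6.6 and 10.1 CPM (1.76 ± 0.27 (SE), edgeR adjusted p = 0.00247). Every TP2 tumor lay above every TP1 tumor for the 3 genes. Siglech, a receptor of plasmacytoid dendritic cells, changed by 1.53 (edgeR adjusted p = 0.0297). Between 2 and 6 members were called with 1 tumor left out, and 2 without both TP2 tumors low in mitochondrial RNA, with a median of 1.62.

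Of 14 T cell genes, 4 were called higher and none lower (median 1.33). Cd3e, a chain of the T cell receptor complex, measured 5.76, 17.7 and 6.75 CPM at TP1 and 36.6, 19.8, 19 and 25.8 CPM at TP2, and the T cell kinase Lck measured 6.43, 22.2 and 10.7 CPM at TP1 and 52.3, 32, 39 and 47.8 CPM at TP2. For both genes TP1 replicate 2 was the highest of its group and lay under the lowest TP2 tumor, by a small margin for Cd3e, and the log2 fold changes were 1.33 ± 0.39 (SE) (edgeR adjusted p = 0.0302) and 1.71 ± 0.47 (SE) (edgeR adjusted p = 0.023). Cd5 (1.52, edgeR adjusted p = 0.0432) and Bcl11b (1.32, edgeR adjusted p = 0.00477) were the other genes called, and the T cell receptor constant genes Trbc1 (1.74, edgeR adjusted p = 0.0494) and Trbc2 (1.59, edgeR adjusted p = 0.0481) were called as well. Of 9 genes of cytotoxic, NK and Th1 cells, 3 were called higher (median 1.53): Fasl, which encodes a death ligand, at 0.167, 0.188 and 0.375 CPM at TP1 and 1.11, 1.12, 0.883 and 1.79 CPM at TP2, the NK receptor Klrk1 (1.95, edgeR adjusted p = 0.0386) and the transcription factor Eomes (1.83, edgeR adjusted p = 0.037). Of 12 regulatory and checkpoint genes, Btla, an inhibitory receptor of B and T cells, rose from 3.31, 9.15 and 8.62 CPM to 34.5, 22.8, 38.7 and 30.5 CPM (2.17, edgeR adjusted p = 0.0123) and Icos, a costimulatory receptor, by 1.35 (edgeR adjusted p = 0.0298). Foxp3, the regulatory T cell factor, measured 5.02, 17.5 and 8.2 CPM at TP1 and 33.7, 19.7, 22.8 and 25.3 CPM at TP2, without overlap and not called (1.31 ± 0.48 (SE), edgeR adjusted p = 0.0673). With TP1 replicate 1 left out, 1 T cell gene, 1 cytotoxic gene and 0 checkpoint genes were called, and without both TP2 tumors low in mitochondrial RNA 0, 1 and 0, with medians of 1.46, 1.33 and 0.97 in the latter. Leaving out TP1 replicate 2 gave 8, 2 and 6 calls in these lists. Foxp3 was called higher in that fit (1.94, edgeR adjusted p = 0.0226) and without TP2 control replicate 2 (1.31, edgeR adjusted p = 0.0325).

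Among the genes of lymphoid aggregates, Cxcr5, which guides B cells to follicles, rose from 1.00, 5.61 and 1.58 CPM to 12.4, 5.78, 12.5 and 16.6 CPM (2.11, edgeR adjusted p = 0.0257), and the lymphotoxin Lta changed by 1.59 (edgeR adjusted p = 0.0448), 2 of 8 genes. No gene of this list was called with any one of TP1 replicates 1 and 3 and TP2 replicates 3 and 4 left out, nor without both of the latter (median 1.45 on the log2 scale), and 4 were without TP1 replicate 2. The follicle chemokine Cxcl13 itself measured 9.04, 28.6 and 3.17 CPM at TP1 and 34, 11.7, 4.93 and 18.3 CPM at TP2, with overlapping groups (0.35, edgeR adjusted p = 0.735). For antigen presentation by MHC class II, 4 of 10 genes were called higher and none lower (median 1.13). Ciita, the coactivator that switches these genes on, measured 46.5, 108 and 64.6 CPM at TP1 and 183, 178, 256 and 279.9 CPM at TP2, a log2 fold change of 1.62 ± 0.42 (SE) (edgeR adjusted p = 0.0193). The other genes called were H2-Ob (2.27, edgeR adjusted p = 0.0134) and H2-Oa (2.13, edgeR adjusted p = 0.0195), which modulate peptide loading in B cells, and H2-DMb2 (1.10, edgeR adjusted p = 0.0363). The list held 0 calls without TP1 replicate 1, without TP1 replicate 3 and without both TP2 tumors low in mitochondrial RNA (medians 0.86, 0.98 and 1.24), 2 without TP2 replicate 4, and 6 without TP2 control replicate 2. The class II chain gene H2-Aa measured 90.2, 251 and 120.0 CPM at TP1 and 499.7, 398, 210.0 and 281 CPM at TP2 and was not called (1.17 ± 0.50 (SE), edgeR adjusted p = 0.102), and TP2 replicates 3 and 4, the highest for Ciita, were the lowest of their group for H2-Aa. H2-Aa was called higher without TP1 replicate 2 (1.724, edgeR adjusted p = 0.0461) and without TP2 control replicate 2 (1.175, edgeR adjusted p = 0.037). For MHC class I, only Nlrc5, the coactivator of class I genes, was called among 11 genes (1.28, edgeR adjusted p = 0.0379), and H2-K1 overlapped between the groups (376, 541 and 450.4 CPM at TP1 and 654, 497, 297 and 373 CPM at TP2). Nlrc5 was not called with any one of the 3 TP1 tumors or of TP2 replicates 3 and 4 left out (1.002 to 1.49), nor without both of the latter. Of 15 interferon-stimulated genes, 0 were called by edgeR, DESeq2 or limma-voom, with 1 at an unadjusted p below 0.05 in edgeR (median 0.92). The median was 0.038 without TP2 replicate 2, with Rsad2 called lower (-1.54, edgeR adjusted p = 0.0393), and 0.546 to 1.13 with any other tumor left out, where Ifit3 was called higher without TP2 replicate 1 (2.02, edgeR adjusted p = 0.041). Isg15 measured 5.12, 8.62 and 21.2 CPM at TP1 and 5.15, 36.2, 4.99 and 3.37 CPM at TP2 and was highest in TP2 replicate 2.

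**Figure D5:**
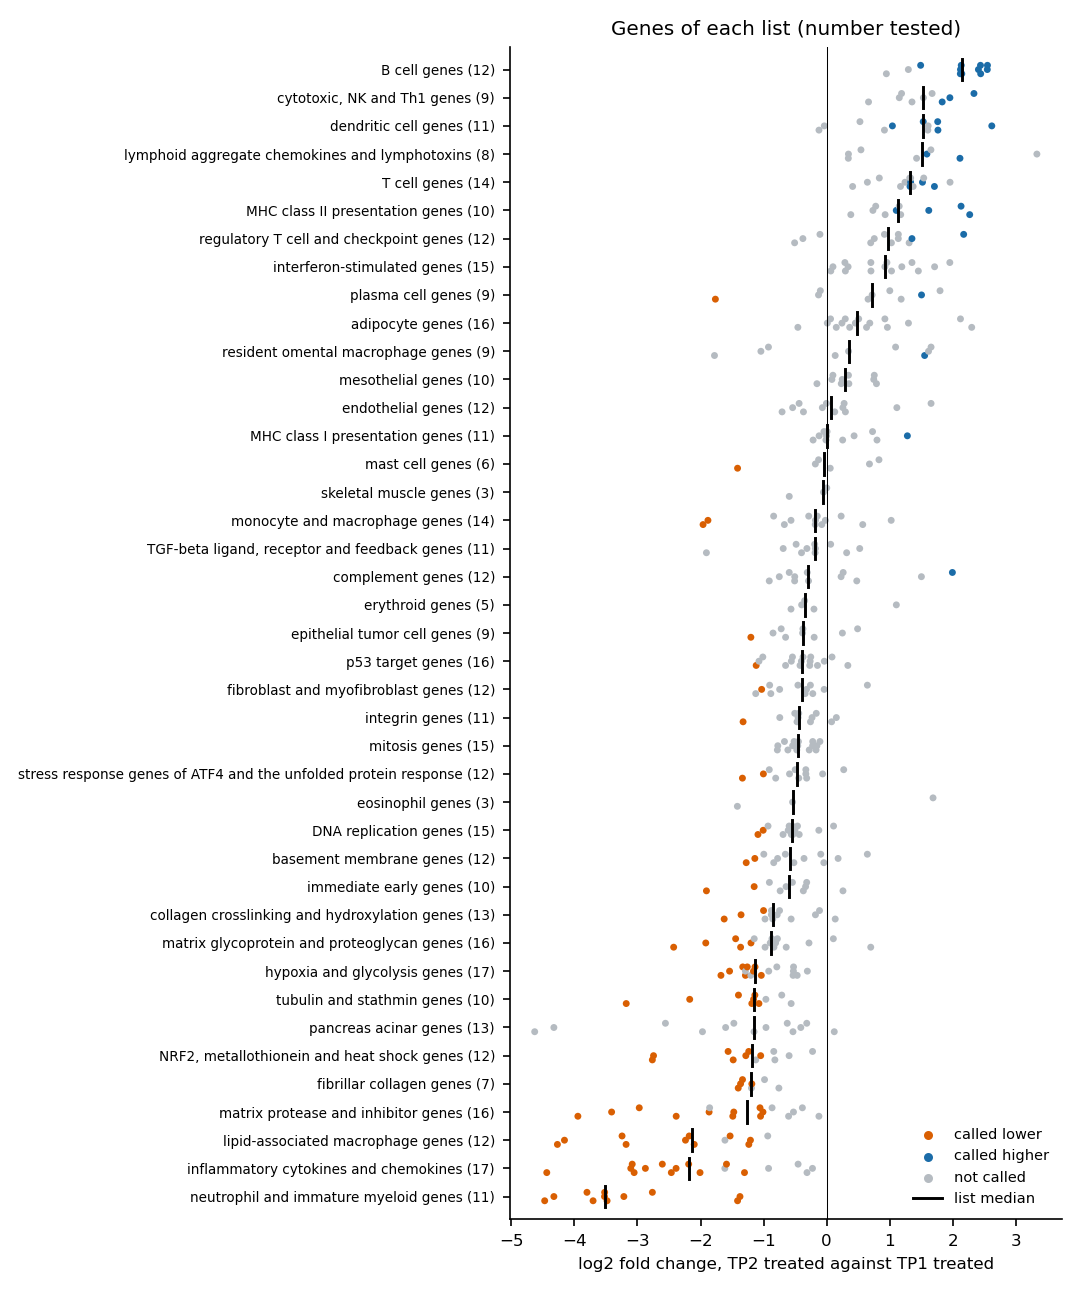
Log2 fold change of TP2 against TP1 treated tumors for each tested gene of the 41 lists, with 1 point per gene (orange called lower, blue called higher, gray not called), a black line at the list median and the number of genes tested in parentheses. Neutrophil, cytokine, lipid-associated macrophage and matrix lists lie to the left, and B cell, dendritic cell and T cell lists to the right of 0.

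The protein coding genes with the largest positive changes that reached 5 CPM in every TP2 tumor had varied known roles. Pla2g2d, a secreted phospholipase of tissue dendritic cells and macrophages, measured 2.24, 4.71 and 2.29 CPM at TP1 and 49.1, 22.3, 10.5 and 21.9 CPM at TP2 (3.08 ± 0.67 (SE), edgeR adjusted p = 0.00971). Retnla, a secreted protein of alternatively activated macrophages, measured 6.16, 19 and 1.87 CPM at TP1 and 46.5, 135, 23.6 and 67.1 CPM at TP2 (2.92 ± 0.78 (SE), edgeR adjusted p = 0.0212). Both were above the TP1 tumors in every TP2 tumor. Kynu, a tryptophan pathway enzyme, changed by 2.66 (edgeR adjusted p = 0.00935), the DNase Dnase1l3 by 2.67 (edgeR adjusted p = 0.0309) and the ligand Wnt2b by 2.64 (edgeR adjusted p = 0.00956). Asic2, an ion channel, measured 1.47, 0.791 and 0.083 CPM at TP1 and 8.1, 6.62, 6.34 and 28.9 CPM at TP2 (3.96 ± 0.85 (SE), edgeR adjusted p = 0.00918), and Ctnnd2, a catenin of synapses, measured 2.08, 1.96 and 1.87 CPM at TP1 and 6.49, 9.47, 6.49 and 29.95 CPM at TP2 (2.73 ± 0.59 (SE), edgeR adjusted p = 0.009). Both were highest in TP2 replicate 4, and the other TP2 tumors still exceeded all TP1 tumors. Nlgn1 (2.502), Naaladl2 (2.53) and Nckap5 (2.44) were also among these genes. Syne1, which ties the nucleus to the cytoskeleton, had the highest mean CPM of the genes called higher, at 530.0, 458 and 291 CPM at TP1 and 728, 988, 1169 and 2760.1 CPM at TP2 (1.73 ± 0.38 (SE), edgeR adjusted p = 0.0101), and again highest in TP2 replicate 4. Without both TP2 tumors low in mitochondrial RNA, the changes were 3.19 for Asic2 (edgeR adjusted p = 0.0611), 1.98 for Nckap5 (edgeR adjusted p = 0.0278) and 1.00 for Syne1 (edgeR adjusted p = 0.0675). As a library measure without TMM normalization, genes spanning over 200 kb summed to 42325, 45165 and 40442 CPM at TP1 and 47376, 49788, 54581 and 49205 CPM at TP2. TP2 replicate 4 had the lowest TMM factor of these tumors (0.882), so TMM normalization would raise its sum by the largest proportion.

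Several cell types and processes showed few or no calls. Of 9 epithelial genes, 1 was called lower, the adhesion gene Cdh1 (40.2, 29.1 and 26.3 CPM to 12, 18.5, 15.1 and 9.88 CPM, -1.20, edgeR adjusted p = 0.00622), and Epcam overlapped at 11.5, 16.3 and 5.66 CPM at TP1 and 12.2, 11.5, 6.39 and 4.17 CPM at TP2. Of 15 DNA replication genes, Rrm2 (-1.09, edgeR adjusted p = 0.00389) and Cdc6 (-1.01, edgeR adjusted p = 0.00247) were called lower, 13 had an unadjusted p below 0.05 and for 9 every TP2 tumor lay below every TP1 tumor (median -0.55). Of 15 mitosis genes 0 were called by edgeR, DESeq2 or limma-voom, with 6 at an unadjusted p below 0.05 in edgeR (median -0.46). Bub1 (-1.07) and Kif20a (-1.17) were called without TP2 replicate 2 (edgeR, list median -0.66), and 3 mitosis genes were without both TP2 tumors richer in mitochondrial RNA (median -0.75). Mki67, a marker of cycling cells, measured 112, 107 and 96.5 CPM at TP1 and 93.3, 116, 78.1 and 91.4 CPM at TP2, with overlap, and all 7 values were below the controls of TP1 (303, 291 and 355 CPM). Of 12 fibroblast genes, 1 was called lower, the smooth muscle actin gene Acta2, whose groups overlapped (-1.03, edgeR adjusted p = 0.0494), and Pdgfra, a receptor of fibroblasts, measured 232, 231 and 268 CPM at TP1 and 200.2, 184, 156 and 171 CPM at TP2, a change of -0.46 within the limit of 1 (edgeR adjusted p = 0.0265). The fibroblast list held 0 calls with any one of the 3 TP1 tumors or of TP2 replicates 2, 3 and 4 left out, 3 without TP2 replicate 1, 0 without both TP2 tumors low in mitochondrial RNA and 5 without the other 2. By edgeR, no gene was called among 10 mesothelial, 12 endothelial, 11 TGF-beta, 5 erythroid, 3 eosinophil, 3 skeletal muscle and 13 pancreas acinar genes. Of these 57 genes, 12 had an unadjusted p below 0.05, against 6065 of all 16241 genes tested. DESeq2 called 1 endothelial gene higher and 1 TGF-beta gene lower, and limma-voom none. With 1 tumor left out, edgeR called Muc16 of the mesothelial (1.13), Inhba of the TGF-beta (-2.31) and Ear2 of the eosinophil genes (3.28) without TP1 replicate 2, Lyve1 of the endothelial genes (1.99) without TP2 replicate 3, Siglecf of the eosinophil genes (-1.75) without TP2 replicate 1, and Inhba (-1.91) without TP2 control replicate 2. Of 12 complement genes, C7 was called higher (1.99, edgeR adjusted p = 0.0273), and C3 overlapped. Without TP1 replicate 1, neither Cdh1 (-0.998) nor C7 (1.73) was called, and C7 was not without TP1 replicate 3 (1.70 on the log2 scale). Without both TP2 tumors low in mitochondrial RNA, 0 epithelial, DNA replication, complement and mast cell genes were called, and without the other 2 the counts called lower were 3, 4, 6 and 1. The call of Hdc was also lost without TP1 replicate 3. Of 6 mast cell genes, Hdc, which neutrophils also express, was called lower (-1.41, edgeR adjusted p = 0.0129), and the list median was -0.04. Cpa3 (3.15, edgeR adjusted p = 0.0185) and Tpsb2 (1.76, edgeR adjusted p = 0.0339) were called higher when TP1 replicate 2 was left out (list median 0.79). Of 16 adipocyte genes, 0 were called by edgeR or DESeq2 with all tumors and 2 by limma-voom (2 at an unadjusted p below 0.05 in edgeR, median 0.48), but 12 were called higher (median 3.20) without TP1 replicate 2, and the median was -0.50 without TP2 replicate 1. Adipoq, the adipocyte hormone adiponectin, measured 2.88, 75.9 and 1.12 CPM at TP1 and 159, 26.8, 8.21 and 13.2 CPM at TP2. The direction of the list median thus depended on TP2 replicate 1.

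The vehicle-treated tumors were compared over the same days. Between the TP1 and TP2 controls, 0 genes were called by edgeR (0%), 1501 had an unadjusted p below 0.05, DESeq2 called 70 and limma-voom 0. The treated and control changes differed for 1129 genes by edgeR (6.95% of genes tested), 582 with a higher and 547 with a lower change in treated tumors. All 11 neutrophil genes were among those with a lower change. Their median in the controls was 0.88. The number of genes that differed depended on TP2 control replicate 2, which lay at -114 on the first principal component, beyond all other tumors, and carried 31.8 CPM of Cxcl2 and 412 CPM of Slc2a1, against 1.68 and 0.349 CPM of Cxcl2 and 94.0 and 67.3 CPM of Slc2a1 in the other TP2 controls. These other TP2 controls, replicates 1 and 3, held 1839 and 358 CPM of pancreas acinar genes, against 5.52 to 12.1 CPM in the other 4 controls and 7.8 to 32.8 CPM in the TP1 and TP2 treated tumors, and 11 of 13 acinar genes were among those with a lower change. With the acinar level as a covariate 1393 genes differed, of which 657 were among the 1129. Without TP2 control replicate 2, 7 of the 11 neutrophil genes (median difference -3.64, against -4.36 with all tumors) and 336 genes in all differed, 321 of them among the 1129, the count was 262 and 379 without TP1 control replicate 1 or 2 and 144 without TP1 treated replicate 1, and the TP2 against TP1 comparison of treated tumors kept 975 of its 977 calls among 1137. Spp1 differed by -4.95 (edgeR adjusted p = 0.0114), with control values of 92.8, 182 and 204 CPM at TP1 and 214, 427 and 187 CPM at TP2. Vcan differed by -1.82 (edgeR adjusted p = 0.0219), with control values of 94.4, 156 and 192 CPM and 170.4, 154 and 89.8 CPM. For both genes the controls at TP1 and TP2 overlapped. Serpinb2, a protease inhibitor of activated macrophages, had one of the largest differences (-6.85, edgeR adjusted p = 0.016), with 13.4, 98.1 and 1.18 CPM in the TP2 controls, the second value being replicate 2, and 3.99, 4.00, 0.416 and 1.36 CPM in the treated TP2 tumors. The difference for Col3a1 was -1.25 (edgeR adjusted p = 0.0354) and that for Col1a1 -1.14 (edgeR adjusted p = 0.0634), which was not called. Among genes that rose, Clec9a (2.703, edgeR adjusted p = 0.0287), Batf3 (2.01, edgeR adjusted p = 0.0133), Ciita (2.18, edgeR adjusted p = 0.0339) and Cr2 (3.40, edgeR adjusted p = 0.0433) differed from the controls, and Cd3e (1.09, edgeR adjusted p = 0.185) was not called. Without TP2 control replicate 2, edgeR called a difference for 0 fibrillar collagen, 0 B cell and 0 MHC class II genes, against 2 in each list with all tumors, so that Col3a1, Cr2 and Ciita were not called. It called 1 dendritic cell gene, against 2, so that Clec9a and Batf3 did not both keep their call. In the matrix glycoprotein and proteoglycan list, which holds Vcan, it called 1 gene, against 3. The medians of the difference in the first 4 lists were -1.09, 1.81, 0.81 and 0.71 in that fit, against -1.03, 2.18, 1.21 and 0.97 with all tumors. When the acinar level was a covariate, these 4 lists held 1, 1, 9 and 3 calls, with medians of -0.947, 4.065, 3.06 and 1.914.

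In treated HGS2 tumors, the step from TP1 to TP2 gave 0 calls by edgeR (0%), with 152 genes at an unadjusted p below 0.05, 1 call by DESeq2 and 0 by limma-voom. The HGS2 medians of the lists were 0.35 for neutrophil, -0.21 for fibrillar collagen and -1.75 for B cell genes. The test of the difference between the models called 1 gene by edgeR (0.00616% of genes tested), Cxcl14, an epithelial and fibroblast chemokine, which measured 62.3, 16.2 and 113 CPM at TP1 and 8.41, 4.27, 4.52 and 4.3 CPM at TP2 in 60577 (-3.56 ± 0.49 (SE), edgeR adjusted p = 0.00215) and changed by 0.81 in HGS2 (difference -4.36, edgeR adjusted p = 0.00285). DESeq2 called 83 genes in this test and limma-voom 0, and edgeR called no difference between the models for the other genes named above.

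At TP3, 21 days after the last dose, Spp1 measured 9.69, 10.3, 9.81 and 6.88 CPM, S100a8 0.465, 0.433, 0.728 and 0.678 CPM and Col1a1 2016, 2159, 1827 and 1658 CPM. Clec9a measured 5.97, 4.29, 6.48 and 5.36 CPM and Adipoq 424, 430.1, 362 and 290.0 CPM. The TP3 values of Spp1 and Col1a1 lay below those of every TP2 tumor and those of Adipoq above them, whereas S100a8 and Clec9a overlapped with TP2.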

How the data were processed

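The authors extracted RNA from snap-frozen omental tumors, 1 per mouse, depleted ribosomal RNA and sequenced strand-specific paired-end libraries. Per the labels and the methods of the study, reads were trimmed with Trim Galore 0.6.5 and mapped with STAR 2.7.0f to GRCm38, and the authors deposited expected counts per Ensembl gene from RSEM, which estimates counts by dividing reads shared among genes. The later normalization of the study is not part of these values. The expected counts of 55487 genes were rounded here, and 55227 genes were matched by ID to the annotation.

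Groups came from the sample labels. Genes with at least 1 CPM in 25% of 33 tumors were kept (1 HGS2 tumor at TP3 was left out), and edgeR 4.0.16 in R 4.3.3 was fitted with TMM scaling to all 17 60577 tumors, with group as the only term. The treated change, the control change and the difference of both were contrasts of this fit, HGS2 was fitted alone and the difference between the models in a joint fit. A gene was called at an adjusted p below 0.05 over all genes tested and an absolute log2 fold change above 1. DESeq2 1.42.0 and limma-voom (limma 3.58.1) were alternatives. The steps were tested on simulated data.

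The 41 gene lists and all comparisons were chosen with earlier results of these data known. Genes were named by a rule: from each list a set gene and the 4 called members with the largest change whose groups did not overlap, the 15 protein coding genes with the largest change in each direction that reached 5 CPM in every tumor of the higher group, the 10 called genes with the highest mean CPM, the 10 largest differences to the controls, and called differences between the models. Acta2, Ighd, Trbc1, Trbc2, Tubb5 and the further tubulin sequences were chosen after their values were seen. Ctgf and Cyr61 were not found under these symbols, and some genes that the rule named are not reported here, though they remain in the counts. Counts cover 1 library per mouse, so that p-values measure the spread between mice, and no 2 replicates agreed within sampling noise.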

Additional observations from a re-analysis of the deposited data

Results flagged for a closer look

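In the groups of 4 tumors, a single tumor lay far from the other 3 in 8 of 145 groups of values examined (gap to the nearest value over the whole range above Dixon's 95% critical value), a rate near the 1 in 20 groups that chance flags. These were Asic2 in TP2 replicate 4 (28.9 CPM), Cdkn1a in TP2 replicate 3 (48.8 CPM, the low end), Cxcl14 in TP2 replicate 1 (8.41 CPM) and Lta in TP2 replicate 2 (1.54 CPM, the low end). Among the library measures (sums in CPM of the total count, without TMM normalization) they were the total count of TP2 replicate 3 (19456375, the low end) and its sum of unclassified and sense intronic transcripts (7545 CPM), the adipocyte genes of TP2 replicate 1 (4320 CPM) and the pancreas acinar genes of TP2 replicate 2 (32.0 CPM). Other long non-coding types are not in that sum.

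The changes of treated and control tumors from TP1 to TP2 differed, by the edgeR test of the difference, for Cxcl2 (-7.57), Hcar2 (-6.88), Serpinb2 (-6.85) and Saa3 (-5.43), all as log2 differences at adjusted p between 0.016 and 0.0176. They also differed for Clec4d (-5.14), Spp1 (-4.95), Mmp3 (-4.76), Nos2 (-4.63) and Hilpda (-4.53), at edgeR adjusted p between 0.0114 and 0.0224. Hcar2, a receptor for butyrate and niacin, measured 3.15, 79 and 1.48 CPM in the TP2 controls and Nos2, the inducible nitric oxide synthase, 6.33, 77.6 and 4.23 CPM, and in both the second value was that of replicate 2, the control that stood apart. Without that tumor the differences lay between -4.69 for Saa3 and -2.16 for Nos2, and these genes kept an edgeR adjusted p below 0.05, except Cxcl2 (-4.13, edgeR adjusted p = 0.0506) and Mmp3 (-3.77, edgeR adjusted p = 0.0566).

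The treated change of Cxcl14 in 60577 minus that in HGS2 was -4.36 (edgeR adjusted p = 0.00285). Its HGS2 change was 0.81, and the gene was lower in 4 of 4 TP2 than in all TP1 tumors of 60577.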

How the results depend on the processing

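The number of calls between TP1 and TP2 treated tumors depended on the fit, whereas none of the called genes that were recomputed in the alternatives changed direction. Against 977 genes, the count was 247 with only the compared groups in the fit, 271 in a fit of both models, 560 with the 7SL share as covariate, 124 without both TP2 tumors low in mitochondrial RNA, 2315 without the other 2, and between 254 and 1369 with 1 tumor left out (without TP1 replicate 1 and TP2 replicate 1). Scaling by DESeq2 size factors (974), no filter (959), DESeq2 (1154) and limma-voom (1009) moved the total little. Of these calls, 947, 788, 960 and 860 in this order were among the 977. Without a filter 487 genes were called higher and 472 lower, against 581 and 396 in the main fit. The replicate block gave 570 calls, and 619 with the length and GC offset. No label says what a replicate number marks. The deviations of same-numbered TP1 and TP2 tumors correlated at 0.065, -0.103 and 0.318, and only number 3 matched its own number best. So few values cannot decide whether same-numbered tumors belong together. For the difference of treated and control changes (1129), the replicate block gave 556 and 260 with the offset, the compared groups alone 252, the joint fit 163, the tumor pairs left out 183 and 3514, and 1 tumor left out 144 to 2261. The controls gave 70 calls by DESeq2 and 0 to 36 with 1 tumor left out, HGS2 gave 1 by DESeq2 and 0 with any tumor left out, and the difference between the models 83 by DESeq2, 0 by limma-voom and 1 to 4 with 1 tumor left out. The mean distance between time points minus that within them was 0.0213 with all tumors and Pearson's correlation. This difference was 0.0186 with Spearman's correlation (exact permutation p = 0.0571) and 0.014 to 0.0293 with 1 tumor left out. Without TP1 replicate 1 or 3 the exact permutation p was 0.133, above the smallest value allowed (0.0667), which was reached without TP1 replicate 2, and without any one TP2 tumor it was 0.1, the smallest value allowed. The cause of these shifts was not tested, beyond the smaller number of tumors.

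The genes that changed direction among those recomputed were not called. These were, as log2 fold changes, Isg15 (-0.29 by limma-voom, -1.52 without the TP2 tumors richer in mitochondrial RNA), H2-K1 (0.006 in the joint fit, 0.011 with the offset, 0.004 with the replicate block and offset, 0.082, 0.005 and 0.075 with the pancreas, 7SL and mitochondrial covariates, 0.332 without the tumors low in mitochondrial RNA), Ddit3 (0.068 with the offset, 0.019 with the block and offset, 0.056 without the richer tumors), Cpa1 (0.383 with the pancreas covariate) and Hbb-bs (0.244 with the 7SL covariate). Without the tumors low in mitochondrial RNA Epcam (0.083) and C3 (0.041) changed direction, and without the richer ones Csf1r (-0.198), Jchain (-0.548), Cxcl13 (-0.261), Pecam1 (-0.041) and Adipoq (-1.351). With 1 tumor left out the range was -1.369 to 0.859 for Isg15, -0.259 to 0.156 for H2-K1, -0.203 to 0.003 for Ddit3, -0.657 to 3.072 for Jchain, -0.255 to 1.492 for Cxcl13, -0.101 to 0.63 for Pecam1 and -0.753 to 4.67 for Adipoq. Genes below 1 CPM rest on few reads per tumor, and TP2 replicate 3 had the lowest total.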

Other observations

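The following genes were grouped after their values were seen, and their counts are a description. Of 9 genes of osteoclasts and macrophage fusion, 6 were called lower at TP2 by edgeR and none higher (median log2 fold change -2.18). Ocstamp, a membrane protein required for the fusion of osteoclast precursors, measured 4.52, 0.49 and 11 CPM at TP1 and 0.154, 0.231, 0.208 and 0.128 CPM at TP2 (-4.85 ± 0.75 (SE), edgeR adjusted p = 0.00247). Siglec15, a receptor of the same cells, measured 2.98, 0.716 and 4.83 CPM at TP1 and 0.422, 0.501, 0.364 and 0.298 CPM at TP2 (-2.82 ± 0.73 (SE), edgeR adjusted p = 0.0193), and Atp6v0d2, a proton pump subunit, measured 33.8, 4.37 and 34.3 CPM at TP1 and 9.18, 6.28, 1.97 and 3.75 CPM at TP2 (-2.18, edgeR adjusted p = 0.0261). TP1 replicates 1 and 3 held the high values of each, and TP1 replicate 2 was near the TP2 tumors. Of 9 CC chemokine genes grouped as macrophage genes, 6 were called lower (median -1.59), among them Ccl6 at 352, 243 and 255 CPM at TP1 and 119, 72.9, 16.9 and 49.8 CPM at TP2 (-2.13, edgeR adjusted p = 0.0191) and Ccl9 at 247, 129 and 224 CPM at TP1 and 90.7, 60.5, 20.4 and 41.2 CPM at TP2 (-1.91, edgeR adjusted p = 0.0116). The 60577 line in monoculture also expressed Ccl2 (116 and 136 CPM), Ccl7 (7.13 and 8.90 CPM) and Ccl9 (4.16 and 2.50 CPM). The others of this group reached at most 0.057 CPM in the line. Of 12 cathepsin genes, 4 were called lower and 1, Ctsw of cytotoxic lymphocytes, higher. These groups share members with the lists above and are not separate evidence. Ccl2, Ccl3, Ccl4 and Ccl7 are also in the inflammatory list, and Ctsk, Ctsl and Atp6v0d2 in the lipid-associated list.

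Of the genes called higher, 15.8% were long non-coding or unclassified transcripts, against 11.1% of all genes tested and 2.27% of those called lower. The processed pseudogene Gm9025 was at 0 CPM in all TP1 treated tumors and measured 8.98, 8.62, 6.75 and 7.71 CPM at TP2, but also 0, 0 and 9.47 CPM in the TP2 controls, 1 of which exceeded the treated tumors. Reads of a pseudogene can come from its parent gene. Npy, the neuropeptide Y gene, measured 2.04, 0.113 and 2.71 CPM at TP1 and 0.154, 0, 0.052 and 0 CPM at TP2 (edgeR adjusted p = 0.0116), and Nyap2, a neuronal signaling adaptor, measured 1.94, 0.113 and 9.62 CPM at TP1 and 0, 0, 0.312 and 0.043 CPM at TP2 (edgeR adjusted p = 0.00831).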
